A study of Mus musculus with 2 samples.

Results

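The Klhl, Kbtbd and cullin genes encode parts of cullin-RING ubiquitin ligases, and their RNA was measured in gastrocnemius, a calf muscle of the mouse. The genes were taken by name alone, as protein-coding genes whose symbol is Klhl, Kbtbd or Cul followed by a number and an optional letter. The rule found 53 genes, of which 36 are Klhl, 9 are Kbtbd and 8 are Cul genes, among 22028 protein-coding genes and 55536 genes listed in all. They lie on 17 chromosomes.

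The muscle came from male B6CASTF1/J mice, an F1 cross of C57BL/6 and CAST strains, at the age of 2 months, with no treatment named in the labels. There are 2 libraries of total RNA in 1 group, replicate 2 and replicate 1, each from 300 ng of RNA with ERCC spike-ins. The labels number the libraries as biological replicates 2 and 1, each with technical replicate number 1. They also name a separate tissue sample for each library under a shared donor entry, and do not say whether these came from separate animals. The spread between the libraries may thus be partly technical. RNA of whole muscle mixes fibres with other cells, and fewer cells of a type cannot be told apart from less RNA per cell. Reads of the 2 parental alleles were counted together against the mm10 reference.

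Cullins are long scaffold proteins that hold a RING subunit, which recruits the ubiquitin-charged enzyme, at one end and a substrate receptor at the other. The Klhl and Kbtbd proteins are receptors for the CUL3 scaffold, which they bind through a BTB domain while a propeller of Kelch repeats takes the substrate. In skeletal muscle several of them are known for keeping the sarcomere intact, and mutations in human KLHL40, KLHL41 and KBTBD13 cause nemaline myopathy, a disease with rods of thin-filament protein in the fibres.

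Levels are those of the first of 2 kinds of table deposited for each library, called the first tables, unless the second tables are named. Depth was alike in both libraries, with 42280091 expected counts over genes in replicate 2 and 42724520 in replicate 1. The tissue label was met by its markers: the skeletal actin gene Acta1 had 16647 TPM in replicate 2, against 18494 TPM in replicate 1, where TPM is a level corrected for transcript length and library size. The libraries differed in fibre markers. By an exact binomial test with an adjusted p under 0.05, all 10 slow-fibre markers were higher in replicate 2, with sums of 3583 TPM there and 1425 TPM in replicate 1, and their log2 ratios had a median of 1.35. Of 11 fast-fibre markers, 10 were higher in replicate 1 and 1 (Myh1) in replicate 2, with sums of 62251 and 78701 TPM in replicates 2 and 1. All 4 tendon markers were also higher in replicate 2, with sums of 79.8 TPM there and 50.1 TPM in replicate 1, and so were all 4 endothelial markers, with sums of 40.6 and 36.5 TPM. Of 4 fibroblast markers, 1 (Col1a1) was higher in replicate 2 and 3 (Pi16, Pdgfra and Dcn) in replicate 1, with sums of 183 and 182 TPM in replicates 2 and 1. Satellite cell markers reached sums of 2.36 TPM in replicate 2, against 2.63 TPM in replicate 1, and lymphoid markers sums of 0.03 and 0.02 TPM.

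Most of the family was expressed. In both libraries, 39 of the 53 genes (73.6%) reached 1 TPM, against 44.6% of all protein-coding genes. The genes together had 998 TPM in replicate 2 and 1056 TPM in replicate 1, or 1027 ± 40.6 TPM (SD, n = 2), which was 0.216% and 0.224% of the protein-coding TPM of replicates 2 and 1. A few genes carried most of this RNA. Klhl31, Klhl41, Cul3, Klhl24 and Klhl21 together held 61.8% of it in replicate 2 and 63.4% in replicate 1. The 36 Klhl genes held 72.6% and 72.0%, the 8 cullins 21.9% and 22.1%, and the 9 Kbtbd genes 5.54% and 5.87% of the sum in replicates 2 and 1.

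**Figure D1:**
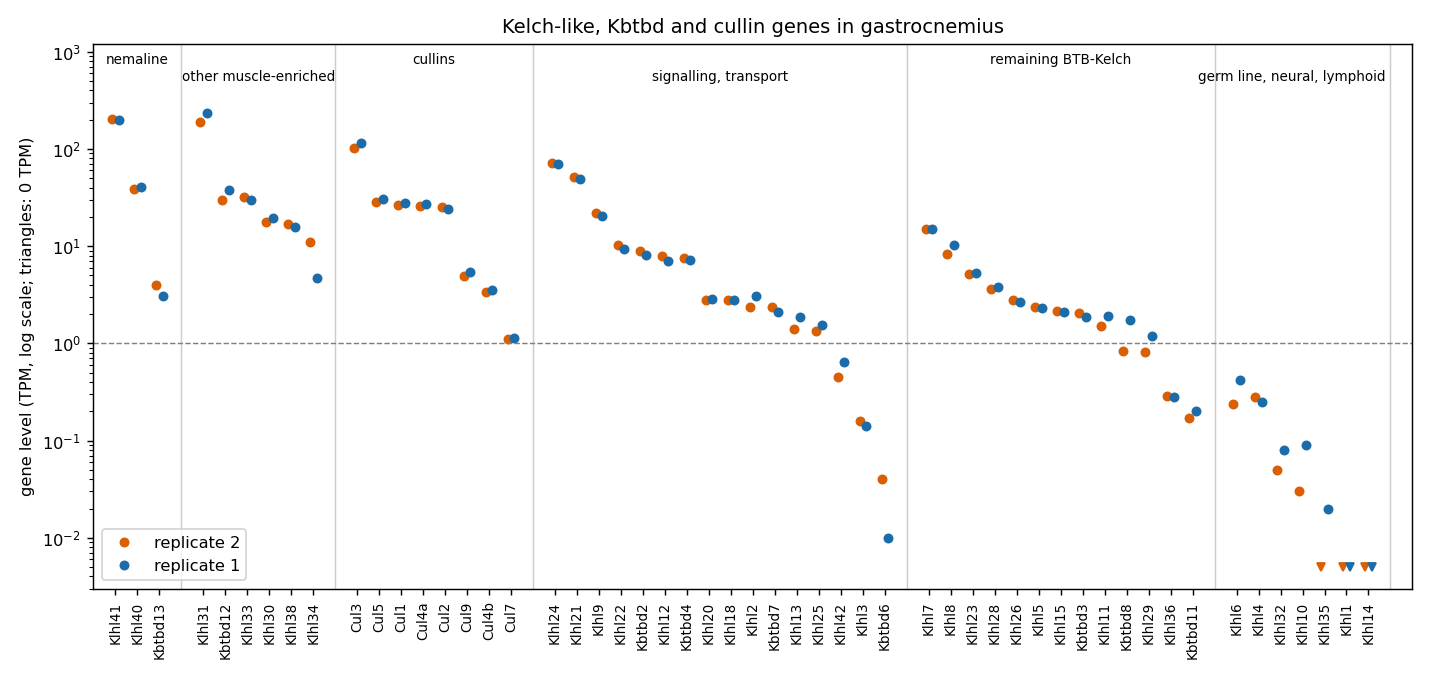
Level of each gene in TPM on a log axis, by role, with replicate 2 in orange left of replicate 1 in blue; the dashed line is 1 TPM and triangles stand for 0 TPM. The levels run from 236 TPM for Klhl31 in replicate 1 to 0 TPM in both libraries for Klhl1 and Klhl14 in these first tables. The points of the libraries lie close together except for Klhl34, Kbtbd8 and genes near 0.

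The genes of nemaline myopathy differed widely in level. Klhl41, whose protein stabilises the giant thin-filament protein nebulin, had 202 TPM in replicate 2 and 201 TPM in replicate 1. Klhl40, whose protein stabilises the thin-filament cap protein leiomodin 3, had 38.6 and 40.3 TPM in replicates 2 and 1. Kbtbd13, a muscle receptor for CUL3, had only 4.00 TPM in replicate 2 and 3.04 TPM in replicate 1. Klhl41 thus ranked 239th by mean TPM among protein-coding genes, Klhl40 1211th and Kbtbd13 7174th. The 3 genes summed to 244 TPM in each library, a quantity whose SD was 0.311 TPM. The proteins of Klhl41 and Klhl40 are of similar length in the annotation, with 606 and 621 residues, each from 6 coding exons, and they share 52.8% of residues over the shorter protein. Kbtbd13 has 458 residues from a single coding exon.

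Klhl41 lies on chr2:69670120-69684230, plus strand, and Klhl40 on chr9:121777607-121783818, plus strand, both in mm10 (GRCm38). Their upstream sequences are shown because these muscle paralogues were both abundant and yet differed 5.1-fold in mean level. Each stretch is the 250 bases before the RefSeq start (build GRCm38.p6), which is also the first base of the GENCODE gene, at chr2:69669870-69670119 and chr9:121777357-121777606, both on the plus strand. Capitals mark the E-box CAGCTG, a palindrome of the kind myogenic factors bind, and the 10-base MEF2 motif.
Klhl41: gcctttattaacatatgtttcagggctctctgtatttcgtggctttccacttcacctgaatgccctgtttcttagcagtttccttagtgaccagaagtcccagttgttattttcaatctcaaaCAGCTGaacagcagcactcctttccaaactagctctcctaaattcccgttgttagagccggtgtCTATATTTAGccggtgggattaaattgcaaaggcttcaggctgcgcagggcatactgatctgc
Klhl40: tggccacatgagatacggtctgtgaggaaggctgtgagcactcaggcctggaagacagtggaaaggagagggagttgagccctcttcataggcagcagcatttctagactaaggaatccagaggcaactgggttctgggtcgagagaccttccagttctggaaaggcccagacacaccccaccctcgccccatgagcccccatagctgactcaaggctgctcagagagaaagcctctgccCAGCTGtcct
Klhl41 held CAGCTG from 127 bases and the MEF2 motif from 63 bases upstream of its start, and Klhl40 held CAGCTG from 10 bases upstream. RefSeq upstream stretches were found for 44 of the 53 genes. Searched on both strands, CAGCTG was in 9 of these 44 genes, against 14.7% of the 27018 genes in the table, and the MEF2 motif was in 3 (Klhl41, Klhl33 and Kbtbd12), against 3.41%. CATTCC, the core of the TEAD motif, was in 8 of the 44, against 14.4%, and TATAAA in 5, against 14.3%. The general E-box CANNTG, which includes CAGCTG, was in 25 of the 44, against 69.3% of all genes. A match says only that the letters are present in this window.

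A further 6 Klhl and Kbtbd genes are muscle-enriched, and together they had 297 TPM in replicate 2 and 344 TPM in replicate 1. Klhl31, which mice need for normal muscle growth, led the family by mean level, with 189 TPM in replicate 2 and 236 TPM in replicate 1. Kbtbd12 had 29.5 and 37.7 TPM, and Klhl33 had 32.0 and 30.1 TPM, in replicates 2 and 1. By mean TPM, Klhl31 was thus 6.32 times as abundant as Kbtbd12 and 6.84 times as abundant as Klhl33. Klhl30 had 17.8 TPM in replicate 2 and 19.6 TPM in replicate 1. Klhl38 had 17.0 TPM in replicate 2 and 15.8 TPM in replicate 1. Klhl34 had 11.1 TPM in replicate 2 and 4.73 TPM in replicate 1, the widest TPM ratio between the libraries among genes with a mean of at least 1 TPM. All 6 were above 1 TPM in both libraries.

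All 8 cullins exceeded 1 TPM in both libraries, and they fell into 3 tiers. Cul3, the scaffold that the Klhl and Kbtbd proteins use, stood alone with 103 TPM in replicate 2 and 114 TPM in replicate 1. In the middle tier, Cul5 had 28.4 and 30.3 TPM, Cul1 26.7 and 27.8 TPM, Cul4a 25.8 and 26.9 TPM, and Cul2 25.3 and 24.2 TPM in replicates 2 and 1. Cul5 and Cul2 work with elongins B and C, Cul1 with SKP1 and F-box proteins, and Cul4a with DDB1. The gene TPM of these 4 scaffolds lay close together in the first tables. For Cul2, 87.3% and 78.7% of it lay on transcripts not annotated as coding, in replicates 2 and 1. Each coding transcript of Cul2 had 2.28 TPM or less. Cul1 and Cul4a averaged 27.3 ± 0.771 and 26.3 ± 0.735 TPM (SD, n = 2), with Cul1 slightly higher in each library. The low tier comprised Cul9, a large cullin that binds p53, with 4.94 and 5.41 TPM, Cul4b with 3.39 and 3.52 TPM, and Cul7, the partner of FBXW8, with 1.10 and 1.14 TPM in replicates 2 and 1. Cul3 was 3.7 times as abundant as Cul5, the next cullin by mean TPM in the first tables. The 45 Klhl and Kbtbd genes together had 780 TPM in replicate 2 and 823 TPM in replicate 1. In the second tables the middle tier was wider. Cul1 had 61.9 and 60.3 TPM there, Cul5 39.0 and 44.4 TPM, Cul4a 39.5 and 38.6 TPM, and Cul2 29.5 and 30.0 TPM in replicates 2 and 1.

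Cullins are switched on by NEDD8, a small ubiquitin-like protein joined to a lysine near the C-terminal end. The 27 coding bases around that lysine, or around the matching lysine in Cul9 and Cul7, are shown for 7 of the 8 cullins, without Cul2. They are shown because the expressed scaffolds share a lysine within a similar stretch. Capitals mark the lysine codon, and the bases come from GENCODE M21 transcripts on mm10.
Cul3: gtgcgaataatgAAGtctaggaagaag
Cul5: atacaaataatgAAAatgagaaagaaa
Cul1: gtgagaatcatgAAAatgaggaaggtc
Cul4a: gtcagaataatgAAAatgaggaagaca
Cul4b: gttcgaattatgAAGatgagaaaaaca
Cul9: gtccggatcctcAAAgcccacagggag
Cul7: gtccgaatcctcAAGgctcacggggat
The lysine is residue 712 of 768 in Cul3, 799 of 855 in Cul5, 720 of 776 in Cul1 and 689 of 745 in Cul2, which leaves 56 residues after it in each. It is residue 705 of 759 in Cul4a and 916 of 970 in Cul4b, with 54 residues after it. The matching lysine of Cul9, residue 1884 of 2530, and that of Cul7, residue 1567 of 1689, lie farther from the end, with 646 and 122 residues after them, and no NEDD8 modification is stated for them here. The lysine codon was aag in Cul3, Cul4b and Cul7 and aaa in the other 4 cullins shown.

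The machinery around the cullins was present throughout. All 11 cullin partners found were above 1 TPM in both libraries, led by Elob (elongin B) with 126 and 137 TPM, Skp1a (the SKP1 adaptor) with 106 and 105 TPM and Eloc (elongin C) with 56.5 and 55.3 TPM in replicates 2 and 1. All 23 genes of NEDD8 attachment and of the COP9 signalosome, which removes NEDD8, were above 1 TPM as well. Cops9 had 75.1 TPM in replicate 2 and 66.9 TPM in replicate 1, Nedd8 68.0 and 73.7 TPM, and Ube2m, which encodes a NEDD8-conjugating enzyme, 53.0 and 53.5 TPM. Of 26 other BTB adaptors of CUL3, 24 were above 1 TPM in both libraries. The most abundant were Spop with 71.5 and 74.6 TPM, Btbd1 with 67.1 and 56.9 TPM and Zbtb16 with 49.0 and 64.9 TPM in replicates 2 and 1.

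The largest group was labelled metabolism, signalling and ion transport and had 16 members, 13 of which were above 1 TPM in both libraries. The label is loose, as some of these genes are known for other roles. Their sum was 193 TPM in replicate 2 and 186 TPM in replicate 1. Klhl24, mutated in a human skin-fragility disease, had 72.1 TPM in replicate 2 and 69.8 TPM in replicate 1. Klhl21, which in human cells acts on Aurora B in mitosis, had 51.1 and 49.1 TPM, and Klhl9, which acts there with Klhl13, had 22.0 and 20.2 TPM in replicates 2 and 1. Klhl24, Klhl21 and Klhl9 carried most of the RNA of this group, so its sum does not measure metabolic or transport roles. Klhl22, whose human protein targets the nutrient-sensing regulator DEPDC5, had 10.2 TPM in replicate 2 and 9.24 TPM in replicate 1. Its counts ran the other way, with 615 in replicate 2 and 686 in replicate 1. In replicate 2, 26.8% of its TPM rests on 8.15 expected counts on the 186-base Klhl22-204. In replicate 1, 16.7% rests on 19.3 expected counts on the 464-base Klhl22-203. Kbtbd2, which limits the insulin-signalling subunit p85-alpha in mice, had 8.86 and 8.11 TPM, and Klhl12, which acts on the COPII coat protein SEC31 in human cells, had 7.96 and 7.03 TPM in replicates 2 and 1. Kbtbd4, known for acting on the CoREST complex in human cells, had 7.48 TPM in replicate 2 and 7.26 TPM in replicate 1. These were followed at lower levels by Klhl20 with 2.77 and 2.83 TPM, Klhl18 with 2.77 and 2.81 TPM, Klhl2 with 2.37 and 3.08 TPM and Kbtbd7 with 2.35 and 2.10 TPM in replicates 2 and 1. Klhl13 had 1.42 TPM in replicate 2, against 1.88 TPM in replicate 1, and Klhl25, whose human protein targets the translation inhibitor 4E-BP1, had 1.34 and 1.56 TPM. Klhl42, Klhl3 and Kbtbd6 stayed below 1 TPM in both. KLHL3 and KLHL2 target the WNK kinases, which control ion transport. Of this pair Klhl2 was the higher in muscle, at the low levels given above. Klhl3 had 0.16 TPM in replicate 2 and 0.14 TPM in replicate 1.

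The 13 remaining Klhl and Kbtbd genes together had 45.1 TPM in replicate 2 and 48.5 TPM in replicate 1. Klhl7, mutated in a human retinal dystrophy, had 14.93 TPM in replicate 2 and 14.97 TPM in replicate 1. Klhl8 had 8.37 and 10.2 TPM, Klhl23 5.17 and 5.26 TPM and Klhl28 3.65 and 3.77 TPM in replicates 2 and 1. These 4 genes made up most of that sum. Klhl26 had 2.82 and 2.64 TPM, Klhl5 2.38 and 2.32 TPM, Klhl15 2.14 and 2.12 TPM, Kbtbd3 2.07 and 1.86 TPM and Klhl11 1.5 and 1.93 TPM in replicates 2 and 1. Kbtbd8 had 0.83 TPM in replicate 2 and 1.75 TPM in replicate 1, although its counts were 135 in replicate 2 and 128 in replicate 1. Its level in replicate 1 rests on 9.89 expected counts placed on the 385-base processed transcript Kbtbd8-204, which made up 57.7% of the gene's TPM there and 0% in replicate 2. Klhl29 had 0.81 TPM in replicate 2, against 1.18 TPM in replicate 1, and Klhl36 and Kbtbd11 lay between 0.17 and 0.29 TPM.

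Genes known from the germ line, the nervous system or lymphoid cells were near or at 0. The 7 genes of this group together had 0.60 TPM in replicate 2, against 0.86 TPM in replicate 1, and none reached 1 TPM. Klhl6, which mice need in germinal-centre B cells, had 13 counts in replicate 2 and 24 in replicate 1, and Klhl4 had 33 and 30 counts. Klhl10, which mice need for sperm formation, had 2 counts in replicate 2 and 6 in replicate 1, Klhl32 had 4 and 7, and Klhl35 had 0 and 1. The second tables gave Klhl32 more counts, 26.6 and 25.6 in replicates 2 and 1, at levels of 0.149 and 0.133 TPM. Klhl1, a gene of the nervous system, and Klhl14 had 0 counts in each library in the first tables, a result that allows up to 3 reads, or 0.071 CPM (reads scaled to the library total) in replicate 2 and 0.0702 CPM in replicate 1. The second tables gave Klhl1 1 count in replicate 2 and 2 in replicate 1, and Klhl14 1 count in replicate 2 and 0 in replicate 1.

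Many close relatives within the family were expressed at unlike levels. Klhl9 and Klhl13 share 88.7% of residues over the shorter protein, yet averaged 21.1 ± 1.27 and 1.65 ± 0.325 TPM (SD, n = 2 each). Cul4a and Cul4b share 81.7% and averaged 26.3 ± 0.735 and 3.46 ± 0.0919 TPM. Klhl2 and Klhl3 share 75.6%, Klhl5 and Klhl1 67.7%, and Klhl24 and Klhl6 46.0%, and in each pair the first was the more abundant in both libraries. Klhl4 and Klhl1, which share 65.8%, were both near 0. Over the whole family, the median identity was 26.0% over all 990 pairs of Klhl and Kbtbd proteins and 27.8% over the 28 pairs of cullins. The proteins share their build more than their letters. The Klhl and Kbtbd proteins had a median of 607 residues (458 to 875) with a median of 7 adjacent glycine pairs, a feature of Kelch repeats, while the cullins had 745 to 2530 residues and a median of 2 such pairs. Of the 45 Klhl and Kbtbd genes, 7 have a single coding exon, among them Klhl9, Klhl34, Kbtbd13, Kbtbd7 and Kbtbd6, whereas the cullins have a median of 20.5 coding exons.

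Kbtbd7 and Kbtbd6, both of which target the RAC activator TIAM1 in human cells, are neighbours 20798 bases apart on chromosome 14, and their reads cannot be fully separated. Their coding regions are 90.8% identical over 1451 aligned bases, with a longest shared run of 488 bases. Its first 120 bases are shown, since a read inside them fits either gene; the capitals mark the start codon of Kbtbd7, and the run begins at coding base 190 of Kbtbd6.
Kbtbd7 and Kbtbd6: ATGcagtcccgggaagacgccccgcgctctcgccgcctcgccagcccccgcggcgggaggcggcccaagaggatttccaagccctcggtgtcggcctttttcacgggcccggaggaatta
Kbtbd7 had 358 expected counts in replicate 2 and 319 in replicate 1, with a posterior SD of 1.40 and 1.12 counts in the authors' tables, and Kbtbd6 had 4.01 and 1.36 counts. Only Kbtbd7, Kbtbd6 and Klhl24 had a posterior SD above 0 in either library. Other neighbours also differed in level. Klhl6 and Klhl24 lie 114504 bases apart on chromosome 16 with 0.24 and 72.1 TPM in replicate 2, and 0.42 and 69.8 TPM in replicate 1. Klhl10 and Klhl11 lie 5591 bases apart on chromosome 11, at 0.03 and 1.5 TPM in replicate 2, and 0.09 and 1.93 TPM in replicate 1. By gene span, Kbtbd4 overlaps 88 bases of Ndufs3, a gene of respiratory complex I, and 2911 bases of Ptpmt1, both on the opposite strand. Ndufs3 had 203 TPM in replicate 2, against 180.2 TPM in replicate 1, and Ptpmt1 had 21.1 and 24.7 TPM. Because the use of strand in the counting was not given in the sources used here, reads of these overlaps may be shared.

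Transcripts were examined for the 12 most abundant genes. Klhl31, Klhl41 and Klhl21 each have 1 annotated transcript. In the first tables, made from reads aligned to the transcriptome, Klhl40-201 held 99.2% of the TPM of Klhl40 in replicate 2 and 100% in replicate 1, and Cul4a-201 held 96.5% and 94.3% of that of Cul4a. Cul1-201 held 85.1% and 83.7% of the TPM of Cul1. In these tables the 3 genes were thus read mainly from 1 coding transcript each, but in the second tables, made from a file of reads, Cul1-201 held only 44.2% and 52.3% in replicates 2 and 1. Cul3 was split between Cul3-202, with 41.0% in replicate 2 and 46.7% in replicate 1, and the longer Cul3-201, with 31.0% and 33.0%, while 22.9% and 20.3% lay on noncoding or decay transcripts. Cul5 was split among Cul5-209 with 34.9% and 43.6%, Cul5-201 with 33.0% and 35.1% and Cul5-202 with 21.7% and 13.2% in replicates 2 and 1. Kbtbd12-202 held 73.9% and 69.5% of the TPM of Kbtbd12, and Klhl33-204 held 72.3% and 80.2% of that of Klhl33, in replicates 2 and 1. In these genes retained-intron transcripts were listed as well, with 23.0% and 25.2% on Kbtbd12-203 and 17.4% and 11.7% on Klhl33-203. The second tables placed 2.06% and 2.82% on Kbtbd12-203, and 16.6% and 12.7% on Klhl33-203, in replicates 2 and 1.

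Cul2 stood apart from the other 11 genes. Its leading transcript was Cul2-202, annotated as a target of nonsense-mediated decay, with 45.9% of the gene's TPM in replicate 2 and 47.1% in replicate 1. In all, 87.3% of the TPM of Cul2 in replicate 2 and 78.7% in replicate 1 lay on transcripts not annotated as coding. The 397-base retained-intron transcript Cul2-203 held 26.6% in replicate 2 and 21.1% in replicate 1, from 68.8 and 52.3 expected counts. The second tables placed 65.2% and 63.9% on Cul2-202 in replicates 2 and 1, and 0% on Cul2-203. Retained introns and other noncoding transcripts were also frequent in the low cullins of chromosome 17, with 42.0% and 36.4% of the TPM of Cul9 and 67.3% and 52.2% of that of Cul7 in replicates 2 and 1.

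**Figure D2:**
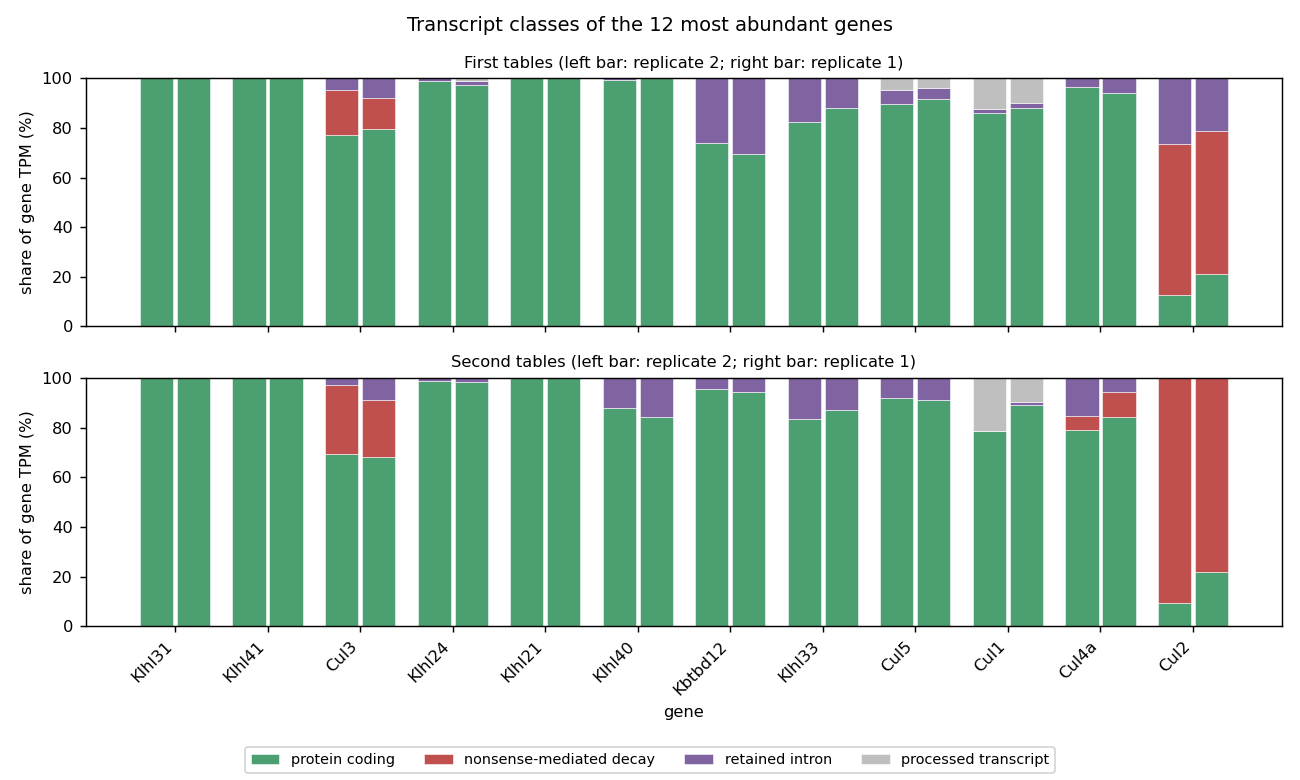
Share of each gene's TPM by annotated transcript class for the 12 most abundant genes, in the first tables (top) and the second tables (bottom), with replicate 2 as the left bar and replicate 1 as the right bar of each pair. Protein-coding transcripts take most of the TPM except in Cul2, where they take the smallest share in both kinds of table.

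The kinds of table also divided the TPM of a gene differently among its transcripts. Klhl24-204, of 840 bases, held 47.2% of the TPM of Klhl24 in replicate 2 and 44.3% in replicate 1 in the first tables, against 14.5% and 17.5% in the second. Klhl24-203, of 741 bases, held 0.333% and 0.688% in the first tables and 37.6% and 35.9% in the second, in replicates 2 and 1. The 501-base Cul1-208 and the 647-base Kbtbd12-204 were at 0 in the first tables. In the second tables Cul1-208 held 23.3% and 30.2% of the TPM of Cul1, and Kbtbd12-204 held 36.1% and 39.5% of that of Kbtbd12, in replicates 2 and 1. The 1602-base Klhl33-201 held 0.937% and 2.52% of the TPM of Klhl33 in the first tables and 16.5% and 15.6% in the second. Shares of single transcripts, short or long, therefore depended on the kind of table in these genes.

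At the level of genes the kinds of table lay closer. After TPM was rescaled to a common total over protein-coding genes in each table, 44 members reached 0.5 in both kinds of table. Their median log2 ratio of first over second tables was 0.18 in replicate 2 and 0.19 in replicate 1, beside 0.12 and 0.10 over all protein-coding genes. The lowest ratios belonged to Cul1, with -0.57 and -0.42, and Kbtbd12, with -0.40 and -0.43. Klhl24, whose transcript shares also differed, had 0.04 and -0.02. The highest were those of Klhl23, with 0.48 and 0.59, and, in replicate 1, of Klhl13, with 0.15 in replicate 2 and 0.68 in replicate 1, and Kbtbd4, with 0.39 and 0.66.

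**Figure D3:**
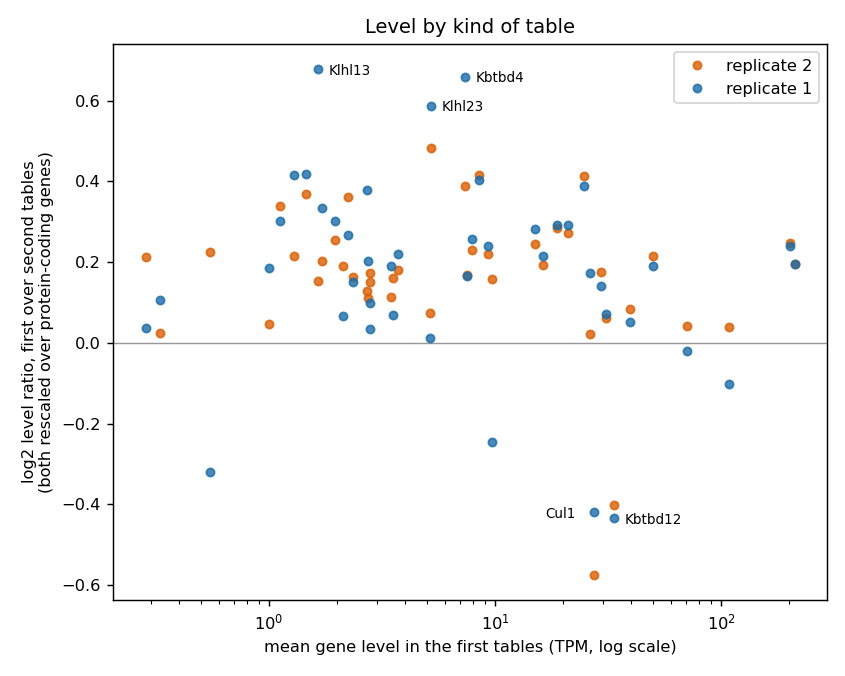
Log2 ratio of each gene's rescaled TPM in the first over the second tables (vertical axis) against its mean TPM in the first tables (horizontal, log axis), replicate 2 in orange and replicate 1 in blue. Most genes lie a little above 0, while Cul1 and Kbtbd12 lie below -0.40 in both libraries.

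The libraries were then compared gene by gene, as replicate 2 over replicate 1. Most genes of the family were alike: 45 of the 47 genes with enough reads (95.7%) lay within 1.5-fold, beside 87.4% of all 14827 genes tested. The latter include genes of every type down to a summed count of 20, and the shares were not matched for depth. An exact two-sided binomial test on the scaled counts, adjusted over all genes tested by the Benjamini-Hochberg method, called a gene at an adjusted p under 0.05. It compares these libraries, not conditions, and covers counting error only. It called 8 members (17.0%) higher in replicate 2, where 14.1% of all genes tested were so called, and 5 members (10.6%) higher in replicate 1, where 11.7% were. Both shares are near those of all genes. With ERCC counts as the scale, 10 and 5 members were higher in replicates 2 and 1, beside 18.9% and 8.32% of all genes tested; with total counts, 4 and 7 were, beside 12.2% and 14.2% of all genes tested. The median log2 ratio was 0.036 over the 47 members and -0.0012 over all genes tested.

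Klhl34 differed most. It had 703 counts in replicate 2 and 298 in replicate 1, a log2 ratio of 1.28 (95% interval 1.09 to 1.48, adjusted p = 1.16e-39 by the exact binomial test). Kbtbd13 had 395 counts in replicate 2 and 300 in replicate 1, a log2 ratio of 0.44 (0.22 to 0.66, adjusted p = 0.000463 by the same exact test). Slow-fibre markers moved the same way with a median log2 ratio of 1.35 and tendon markers with 0.80, and their part in these differences was not tested. The other 6 genes higher in replicate 2 were Klhl12, Klhl9, Klhl38, Klhl21, Klhl24 and Klhl41, with log2 ratios of 0.21, 0.17, 0.15, 0.11, 0.08 and 0.06. With DESeq2 size factors Klhl41 and Klhl38 were no longer called, and with total counts Klhl24 and Klhl12 were not called either.

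Replicate 1 was higher for the most abundant member of the family. Klhl31 had 41574 counts in replicate 2 and 51775 in replicate 1, a log2 ratio of -0.27 (95% interval -0.29 to -0.25, adjusted p = 6.11e-177 by the exact binomial test). Cul3, with 8934 counts in replicate 2 and 10620 in replicate 1, had a log2 ratio of -0.20, and Kbtbd12, with 3872 and 4770 counts, had one of -0.25. Cul9 and Klhl8 had log2 ratios of -0.25 and -0.23. These 5 genes stayed on the same side and past the threshold under each scaling and kind of table tried. Fast-fibre markers also lay on this side, with a median log2 ratio of -0.28, as did 4 of 5 markers of all fibres, with a median of -0.13, and 3 of 4 fibroblast markers, with a median of -0.41; their part was not tested. Klhl40, with 3000 counts in replicate 2 and 3140 in replicate 1, did not pass the test, and its interval ran from -0.09 to 0.05 on the log2 scale. Of the 34 genes that were tested and not called, all but Cul5 and Klhl23 had intervals that spanned 0. Klhl6, beyond 1.5-fold with a log2 ratio of -0.81, had an interval from -1.93 to 0.19.

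**Figure D4:**
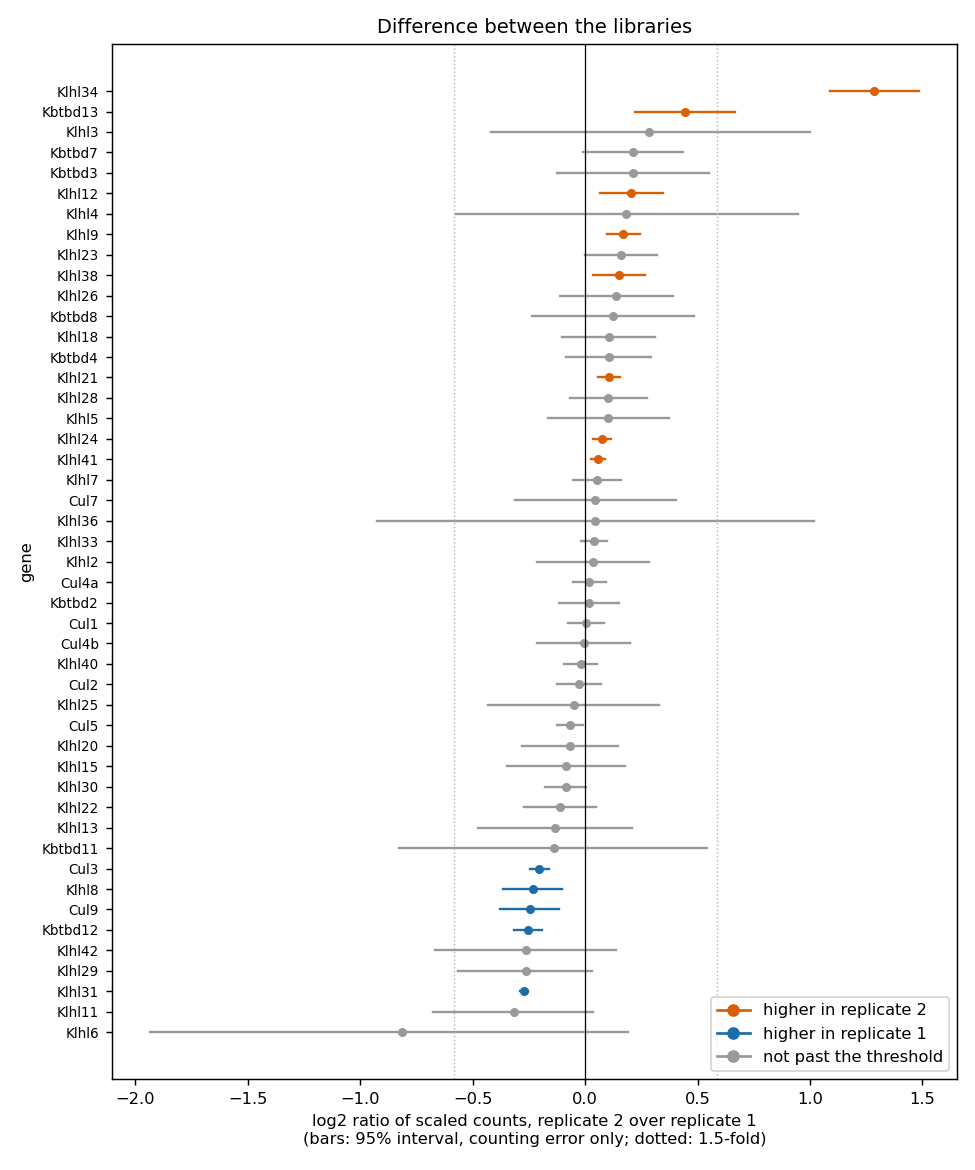
Log2 ratio of scaled counts, replicate 2 over replicate 1, for the 47 genes tested, with 95% intervals for counting error as bars; orange genes passed the test as higher in replicate 2, blue as higher in replicate 1 and grey did not pass, and dotted lines mark 1.5-fold. Klhl34 at 1.28 lies far from the rest, and the called genes other than Klhl34 lie within 1.5-fold.

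Partners and substrates of the family differed between the libraries in both directions. Of 28 tested, 6 were higher in replicate 2 and 10 in replicate 1, where 14.1% and 11.7% of all genes tested were so called. These shares were not matched for depth, and a test of counting error alone passes deep genes at small ratios. Neb passed at a log2 ratio of -0.13. The median log2 ratio of the 28 was -0.04, beside -0.0012 over all genes. The largest fold was that of Lmod2, a leiomodin of the thin filament, with 84.2 TPM in replicate 2 and 41.3 TPM in replicate 1, at a log2 ratio of 1.08. Nrap, a partner of the KLHL41 protein, had 339.9 TPM in replicate 2, against 265 TPM in replicate 1, and Lmod3, the leiomodin that KLHL40 stabilises, had 44.0 and 37.4 TPM. Neb, which encodes nebulin, had 2328 TPM in replicate 2 and 2612 TPM in replicate 1. Asb2, a receptor of CUL5 in muscle, had 169 and 215 TPM in replicates 2 and 1. Of the genes for nebulin and its stabilisers, Neb was thus higher in replicate 1, Klhl40 did not pass the test, and Klhl41 was higher in replicate 2 only under some scalings, with an adjusted p of 0.0543 with DESeq2 size factors and 0.271 with total counts by the exact test.

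In the pathway lists, calls are again to be read against 14.1% of all genes tested higher in replicate 2 and 11.7% higher in replicate 1. The lists were not matched to all genes for depth either. Of the 11 cullin partners 0 were higher in replicate 2 and 2 (Arih1 and Arih2, ligases that work with neddylated cullins) in replicate 1 by the exact test. Of the 23 NEDD8 and COP9 genes 1 (Cops9) was higher in replicate 2 and 2 (Cops2 and Cops4) in replicate 1, and of the 26 other CUL3 adaptors 3 (Btbd1, Rhobtb1 and Abtb2) and 2 (Zbtb16 and Rhobtb3) were. Of 4 Kelch genes outside the naming rule, Enc1 had 0.94 TPM in replicate 2 and 0.44 TPM in replicate 1, a log2 ratio of 1.14, and passed the test, and Ivns1abp was higher in replicate 1. Keap1, the sensor that holds the antioxidant factor NRF2 in check, had 21.6 TPM in replicate 2, against 24.4 TPM in replicate 1 and did not pass.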

How the data were processed

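Total RNA of gastrocnemius was measured in 2 libraries of 1 group. Per the file headers, the first tables, a gene and a transcript table for each library in the layout of RSEM, hold expected counts, TPM and a posterior SD of each count, which was read as a score deposited by the authors. The second tables deposited by the authors, in the layout of kallisto, hold estimated counts and TPM per transcript, which were summed to genes. Notes deposited with the samples give mm10 and GENCODE M21; the programs, with versions, were not given in the sources used here. Columns of other samples numbered 0.

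Expected counts were rounded and scaled by TMM factors from edgeR 4.0.16 (R 4.3.3), with DESeq2 1.42.0 size factors, total counts and ERCC counts as alternatives. A contrast of 1 library with the other leaves no residual degrees of freedom, so each gene with 20 or more counts in sum was put to an exact binomial test, two-sided and conditional on its sum (scipy 1.17.1), adjusted over all of them (statsmodels 0.14.6). Log2 ratios had 0.5 added to each count, and 95% Clopper-Pearson intervals describe counting error alone, as PCR copies make reads dependent. The test was tried on simulated counts, drawn as independent Poisson counts at the same library sizes. That setting has no PCR copies and no variation between samples, so it cannot show how the test behaves with them. Level differences between genes were not tested. Proteins were translated from the longest annotated frame and aligned with Biopython 1.88 (BLOSUM62, gap penalties 11 and 1, end gaps free).

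The members were chosen by symbol, and they, the roles and the gene lists were chosen with earlier results of these data known. Values are named for each member with a mean of at least 1 TPM, transcripts for the 12 most abundant, and genes of the pathway lists where they are among the 3 highest or, when tested, pass 1.5-fold. Further members and list genes, Lmod3, Keap1 and the called genes of the smaller lists among them, were named after their values were seen. So were Ptpmt1 and the transcripts of Klhl22 and Kbtbd8.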

Additional observations from a re-analysis of the deposited data

How the results depend on the processing

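Of 78 log2 ratios, those of the 13 called members under 6 alternatives, 72 stayed past the threshold on the same side, 6 fell short of it and 0 reversed. The 6 belonged to Klhl41, Klhl38, Klhl24 and Klhl12 under DESeq2 size factors or total counts. Among the 72 are the ratios with 1 or 0.1 added to each count. The added count enters the ratio and not the test, so these could not fall short of the threshold. Members higher in replicate 2 numbered 8, beside 14.1% of all genes tested, and 4 with total counts, beside 12.2%; the other alternatives gave 6 to 10, beside 8.56% to 18.9%. Members higher in replicate 1 numbered 5 to 7, beside 6.92% to 14.2% of all genes, and the counts under the scalings moved with these shares. The number of members at 1 TPM or more in both libraries was 39, and 34 to 41 under other thresholds, the second tables or either library alone. Summed TPM was 1026.9, and 1505.1 in the second tables. Without replicate 1 or 2 it was 998 and 1056. These sums were not rescaled over protein-coding genes. After that rescaling, the median log2 ratio of first over second tables over 44 members was 0.18 in replicate 2 and 0.19 in replicate 1. The 5 most abundant genes held 62.6% of the summed TPM, 61.2% in the second tables, and 61.8% and 63.4% in single libraries. The cause of the moves between tables was not tested. Of the scalings, ERCC counts shifted the median log2 ratio of all genes most, to 0.053. Depth limits Klhl3, Klhl4, Klhl6, Klhl11, Klhl36, Klhl42 and Kbtbd11, the 7 genes not called whose intervals reach beyond 1.5-fold. No paired analysis was possible because there is 1 group. With 2 libraries, leaving one out leaves no ratio between them.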
